A study of Homo sapiens with 2 samples.

Results

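The transcripts described here are the 10 genes TLR1, TLR6, TLR7, TLR9, TLR10, CD180, UNC93B1, MYD88, IRAK4 and IRAK1, which encode Toll-like receptors of B cells, a related receptor, and the chaperone, adaptor and kinases that act closest to them. They were taken by gene name from a table of 47352 gene names that gives coverage in windows along exons, and for each gene the listing with most windows was kept. All 10 names were found, with 779 windows in all. The cells were GM12878, a human B lymphoblastoid line that was transformed with Epstein-Barr virus and stands for 1 donor. They were grown in RPMI with 15% serum and collected at 600000 cells per ml, with no further treatment in the labels. RNA was fragmented, and 1 library was made from unselected fragments (the input) and 1 from fragments bound by an antibody against N6-methyladenosine (m6A), called the IP. With 1 library of each kind no difference between them has a replicate check, no test across libraries was possible, and all intervals given are 95% intervals of counting error alone.

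Toll-like receptors are membrane proteins that recognise microbial molecules through a horseshoe of leucine-rich repeats and signal through an intracellular TIR domain. TLR1 and TLR6 pair with TLR2 at the cell surface to bind lipopeptides, while TLR7 and TLR9 bind RNA and DNA in endosomes and need the chaperone UNC93B1 to reach them. The TIR domain recruits the adaptor MYD88, which assembles the kinases IRAK4 and IRAK1 and leads to NF-kB and interferon regulatory factors. B cells carry TLR7, TLR9, TLR10 and CD180 and can answer their ligands without T cell help. m6A is a methylated adenosine of messenger RNA that marks transcripts for reader proteins acting on splicing, translation and decay, and in many mRNAs it lies in long internal exons and in the last exon.

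Coverage over the kept listings of all genes corresponded to about 51.7 M input reads and 58.5 M IP reads of 36 nt, where M stands for 1e+06. A gene counted as measured when its scaled input coverage averaged 1 or more, which 10756 genes reached, including all 10 members. Of 10 B cell markers all were measured, with input coverage from 6.85 to 775. The source name in the labels reads mouse embryonic stem cell, but none of 8 pluripotency markers was measured, and their highest input was 0.153. Of 8 myeloid markers only ITGAM was measured (1.12), with FCGR1A and CSF3R at 0. Of 5 markers of plasmacytoid dendritic cells, which also use TLR7 and TLR9, LILRA4 (1.04) and IL3RA (4.72) were measured and the other 3 were not. Of 8 T cell markers only CD3E was measured (1.52), and none of 7 fibroblast markers was.

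In the input, MYD88 and TLR10 stood among the higher members and CD180 and TLR9 lowest. Coverage is an average per base, so it can be compared between genes of different length. Mean input coverage was 10.9 in MYD88 (10.6 to 11.2), 8.22 in IRAK1 (8.0 to 8.45) and 8.11 in TLR10 (7.89 to 8.33). IRAK1 and TLR10 did not differ beyond their counting intervals. It was 5.27 in UNC93B1, 3.91 in TLR7, 3.03 in TLR1 (2.87 to 3.19), 2.70 in TLR6 (2.59 to 2.80) and 2.19 in IRAK4 (2.09 to 2.30), each apart from its neighbours in this order. TLR9 at 1.55 (1.45 to 1.65) and CD180 at 1.38 (1.27 to 1.49) came last, with intervals that overlapped and the smallest read numbers, about 978 and 627. The median over all measured genes was 3.75, so the members lay on both sides of it. The other Toll-like receptors were not measured: TLR5 stood at 0.219, TLR4 at 0.0620, TLR2 at 0.0148, TLR8 at 0.00603 and TLR3 at 0. The partner of TLR1 and TLR6, TLR2, was thus near 0 in these cells.

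**Figure D1:**
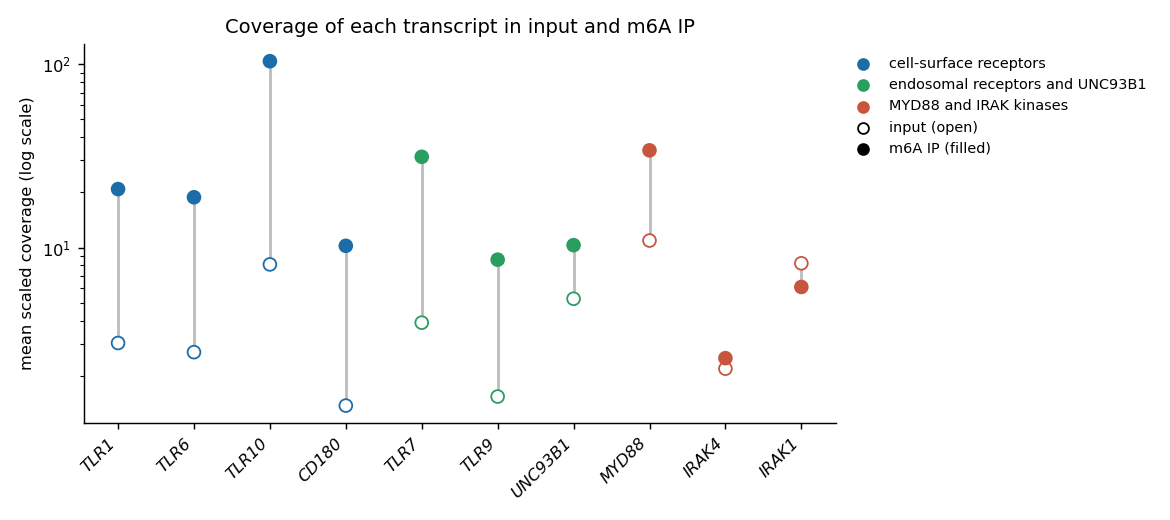
Mean scaled coverage of the 10 transcripts (log axis) in the input (open circles) and the m6A IP (filled circles), 1 library each, coloured by role. The 6 receptors rise from inputs of 1.38 to 8.11 to IP values of 8.60 to 104, while IRAK1 falls from 8.22 to 6.11.

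The receptor transcripts had several times more mean coverage in the IP than in the input, and the kinases did not. TLR10, an orphan receptor found mainly in B cells, had a mean coverage of 8.11 in the input and 104 in the IP, which is 12.8-fold and a log2 ratio of 3.68 (3.64 to 3.72). This placed it at position 119 of 10756 measured genes. TLR7, the endosomal sensor of single-stranded RNA, had 3.91 and 31.3, a log2 ratio of 3.0 (2.95 to 3.06). CD180, a leucine-rich repeat receptor without a TIR domain, had 1.38 and 10.2, a log2 ratio of 2.89 (2.77 to 3.02). The interval of CD180 overlapped those of TLR7 and of the lipopeptide receptors. TLR6 had 2.70 in the input and 18.8 in the IP, a log2 ratio of 2.80 (2.74 to 2.86). TLR1 had 3.03 and 20.9, a log2 ratio of 2.79 (2.70 to 2.87), not apart from TLR6. TLR9, the endosomal sensor of CpG DNA, was the lowest receptor with 1.55 and 8.60, a log2 ratio of 2.48 (2.37 to 2.58).

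The adaptor, the chaperone and the kinases followed in a descending order. MYD88 had 10.9 in the input and 33.9 in the IP, a log2 ratio of 1.63 (1.58 to 1.68). UNC93B1 had 5.27 and 10.3, a log2 ratio of 0.97 (0.89 to 1.05). IRAK4, the first kinase to join MYD88, had 2.19 and 2.50, a log2 ratio of 0.19 (0.08 to 0.30), and IRAK1, its substrate, 8.22 and 6.11, a log2 ratio of -0.43 (-0.50 to -0.36). These 4 members thus stood apart from each other and from all 6 receptors beyond counting error. IRAK1 was the only member with less coverage in the IP than in the input, and the median over measured genes was 0.44, above both kinases. How the authors scaled the libraries to each other is not known, and relative to that median IRAK4 stood at -0.25 and TLR9 at 2.03.

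A ratio of 4-fold or more over the whole transcript was found in 6 of the 10 members, the 6 receptors, against 16.5% of all measured genes. Among the 4753 measured genes of 50 to 120 windows, the range that holds all members, the share was 19.7%. In each of the 6 receptors the longest exon held at least 80% of the windows, from 83.3% in TLR9 to 98.3% in TLR6, and in the other 4 members between 30.8% in UNC93B1 and 63.3% in MYD88. Among all measured genes with such an exon 27.1% reached 4-fold, and 14.1% among those without. Among measured genes of several exons and the same range of windows whose longest exon held at least 80% of them, a comparison chosen after the values were seen, 44.1% of 479 genes reached 4-fold, with a median log2 ratio of 1.84. The receptors thus share an exon layout in which such ratios are more frequent, and their part in the ratio was not tested. With the median coverage over windows in place of the mean, TLR6 (1.70) and TLR9 (1.73) fell below 4-fold, and 4 members and 3.27% of measured genes remained. All windows that belong to a local region as defined next were also removed. TLR1 and TLR9 had no such region, so their ratios could not change. TLR6 (2.03), CD180 (2.66), TLR7 (2.73) and TLR10 (3.29) stayed above 4-fold, and 4.24% of measured genes were at 4-fold or more. Windows with a high ratio outside such regions stayed in. Regions are scored against the gene's own median, so a gene with a broad ratio loses few windows in this step. In TLR10, 44 windows had a log2 ratio of 2 or more with 1 added, and only 5 were in regions. Staying above 4-fold here was therefore no test of the receptors against other genes.

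**Figure D2:**
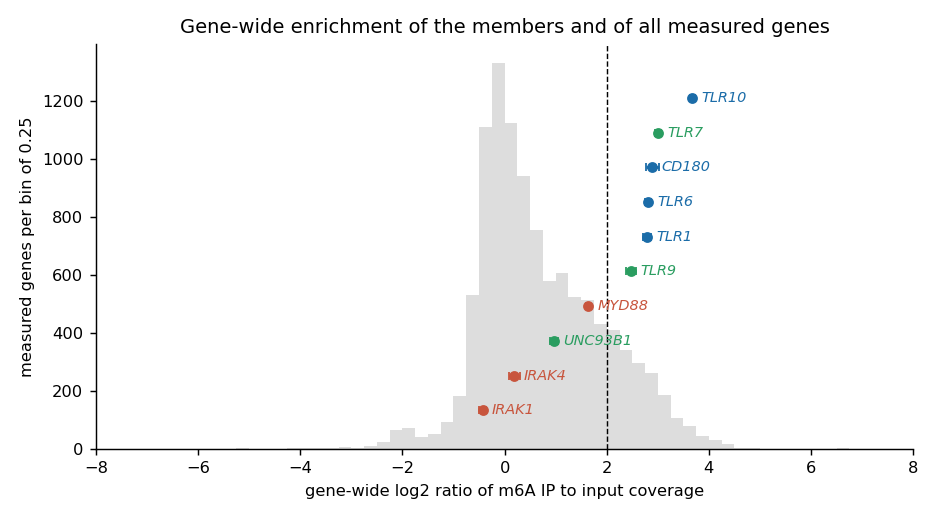
Number of measured genes (grey bars, bins of 0.25) by log2 ratio of mean IP to mean input coverage over the whole listing, with the 10 members as points and 95% counting intervals as bars. Point height only separates the names, and the dashed line marks 4-fold, which the 6 receptors exceed. One gene with no IP coverage is not drawn.

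Local peaks were a different matter. The window score divides the IP by the gene's median IP and the input by the gene's median input, with 1 added to each number, and takes the log2. It therefore removes an enrichment that most of a gene shares. Runs of 2 or more neighbouring windows that each scored 2 or more were taken as regions, and the best mean over 2 neighbouring windows served as the gene-level score. Regions were found in 6 of the 10 members: TLR6, TLR10, TLR7, CD180, UNC93B1 and MYD88. Over all measured genes the share was 44.2%, and 57.9% in genes of 50 to 120 windows, so the members' count is near that of genes of their size. In the 479 genes of several exons with the receptors' layout the share was 71.6%, against 4 of the 6 receptors. Without centring, but with 1 still added to each number, runs at a log2 ratio of 2 or more were found in 8 of the 10 members, all but the kinases. They were found in 45.5% of measured genes. For single windows, 4-fold below means this log2 ratio of 2 or more, with 1 added. Folds printed beside an IP and an input value have nothing added. With centring, the median gene-level score of the 10 members was 2.53, against 1.81 over all measured genes and 2.43 in those of 50 to 120 windows.

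Among the cell-surface receptors TLR6 had the highest centred score, while TLR10 was higher without centring (5.65 against 4.55). Its terminal exon of 117 windows held 3 regions of 15 windows in all, where 5.75% of the windows of all measured genes scored 2 or more, with scores at their peaks of 3.23, 3.15 and 3.30. At these peaks the IP stood at 122, 58.2 and 148 and the input at 4.20, 1.64 and 4.97. The peaks lay 3200, 2600 and 2300 nt from the inner edge of the exon, which is the edge that adjoins the rest of the transcript, so that the 3 regions formed 1 cluster in the middle of the exon. Without centring, TLR6 held 6 runs of windows at 4-fold or more, the longest with 15 windows, and 42.9% of its windows reached 4-fold, against 7.72% of the windows of all measured genes. Its other exon, of 2 windows, had no coverage in either library.

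TLR10 had the highest IP values of the group in a broad plateau. Without centring, 36 consecutive windows of its terminal exon, about 1850 nt, stayed at 4-fold or more, and 53.7% of all its windows did. On top of this plateau lay 2 regions, with an IP of 632 and an input of 10.8 at the higher peak and 537 and 12.7 at the lower. These are ratios of 58.4-fold and 42.3-fold, while the centred scores were only 2.90 and 2.45, because the gene's median IP was itself 64.4 against a median input of 8.09. The peaks lay 1600 and 1250 nt from the inner edge. The gene-level score was 2.80 (2.63 to 2.97). It was the same in all 5 listings of TLR10, of 71 to 82 windows, because they share the peak windows and the gene median.

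TLR1 had no region, though many of its windows had a high ratio. Its gene-level score was 1.96 (1.67 to 2.24), just below the threshold, with an IP of 50.7 and an input of 2.25 over the pair of windows. Without centring the same pair stood at 3.97, and 44.8% of the windows reached 4-fold in 3 runs. CD180 had 1 region of 3 windows with an IP of 40.5 and an input of 0.964 at its peak, 1950 nt from the inner edge. Its gene-level score of 2.40 (2.07 to 2.70) rested on about 21 input reads. It changed with the number added before the logarithm, from 2.95 with 0.1 to 1.82 with 5, where the region was lost.

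TLR1, TLR6 and TLR10 are related genes, and in the RefSeq gene table TLR10 and TLR1 are direct neighbours and TLR6 lies close by. TLR1 and TLR6 have long stretches of nearly identical coding sequence, which reads of 36 nt can fail to tell apart. How reads with several matches were treated is not given in the sources used here, so the split of coverage between TLR1 and TLR6 is uncertain. TLR6 also overlaps FAM114A1 in that table, a gene whose mean input was 0.249 and IP 0.318, far below the TLR6 values. The libraries kept the strand per the labels, but whether the coverage used it is not given in the sources used here.

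Of the endosomal receptors, TLR7 had both local regions and a long enriched stretch. In its terminal exon of 97 windows 2 regions had peaks 2450 and 2750 nt from the inner edge, with an IP of 154 and 159 and an input of 5.05 and 4.63. Its gene-level score was 2.66 (2.44 to 2.89). Without centring TLR7 held 8 separate runs at 4-fold or more, the largest number among the members, and 50.5% of its windows reached 4-fold. The first 7 runs lay within 3000 nt of the inner edge and the last, 4350 nt from it at its peak, had 53.5 in the IP and 3.11 in the input. TLR7 thus showed repeated peaks along the exon with a gap before the last one.

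TLR9 had no region. A single window reached a score of 2 or more (2.27, with an IP of 19.1 and an input of 0.743), its better neighbour stood at 1.90, and the gene-level score was 2.08 (1.73 to 2.36) on about 13 input reads. Without centring 6 runs and 28.2% of windows reached 4-fold, the lowest share among the receptors. CD180, with an input of 1.38 against 1.55 in TLR9, reached 41.1%. The part of the input level in these shares was not tested.

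UNC93B1, the chaperone of the endosomal receptors, showed the opposite pattern, with 1 sharp peak on a depleted background. A single region of 7 windows, about 400 nt, lay in the terminal exon of 16 windows, with its peak 350 nt from the inner edge. There the IP reached 67.6 over an input of 2.76, a 24.5-fold ratio, while the gene's median IP was 2.50 and its median input 3.91. Its gene-level score of 4.30 (4.0 to 4.58) was the highest of the members and stood at position 1039 of the measured genes. Without centring 7.69% of its windows reached 4-fold, close to the 7.72% of the windows of all measured genes. UNC93B1 has pseudogene copies in the RefSeq gene table, and how reads were shared among them is not known here, so its level is uncertain.

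MYD88 had the same kind of local signal in its last exon. The 2 regions of 3 and 4 windows lay 200 and 400 nt from the inner edge at their peaks, with an IP of 215 and 192 and an input of 19.1 and 15.8. The gene-level score was 2.78 (2.61 to 2.95) in each of the 5 listings of the gene, which share the peak windows and the gene median. Without centring these windows formed 1 run of 9, and 16.7% of windows reached 4-fold. The centred regions of MYD88 and UNC93B1 lay within 500 nt of the inner edge and those of the receptors 1250 to 3300 nt from it. The long exon had 16 windows in UNC93B1 and 38 in MYD88, against 47 to 117 in the receptors with a region. No region of UNC93B1 could thus lie as far from the edge as those of the receptors. By equal parts of the exon, given below, UNC93B1 was highest in the middle, as were TLR6, TLR7 and TLR10. Without centring the receptors' runs covered other positions too, such as 100 to 450 nt from the edge in TLR7.

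The kinases had no region. IRAK4 reached a gene-level score of 1.90 (1.51 to 2.26) in its last exon, 1050 nt from the inner edge, with an IP of 6.61 and an input of 1.35, and 1 of its windows scored above 2. IRAK1 reached 0.93 (0.66 to 1.20) with an IP of 11.6 and an input of 8.35, at position 8290 of the measured genes. With 1 added to each number and no centring, no window of either kinase reached 4-fold (0 of 94 and 0 of 79). The highest log2 ratios of single windows were then 1.83 in IRAK4 and 0.55 in IRAK1. That IRAK4 window had an IP of 6.15 and an input of 1.01, so its ratio with nothing added was above 4-fold. IRAK1 had about 5267 input reads, MYD88 5323 and TLR10 5392, and the part of read number in their ratios was not tested.

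**Figure D3:**
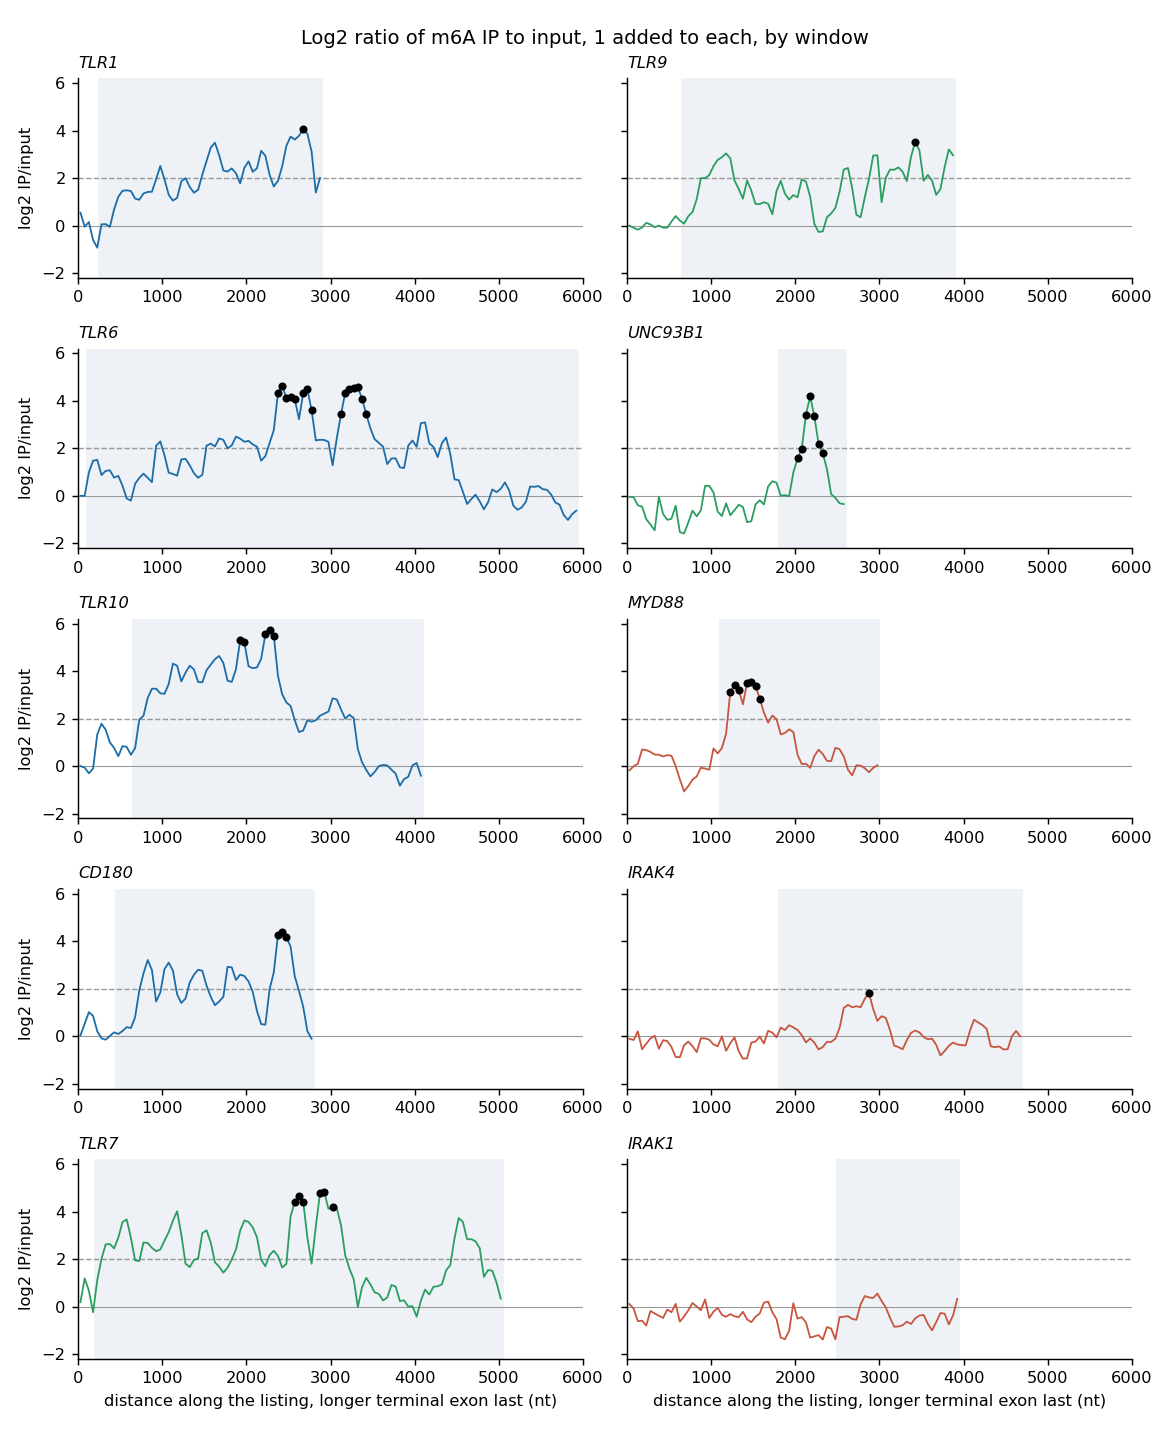
Log2 ratio of IP to input coverage, with 1 added to each, in every window of the 10 members against distance along the listing in nt, drawn so that the longer terminal exon (shaded) comes last. Black dots mark windows with a centred score of 2 or more, the dashed line marks 4-fold, and 28.2% to 53.7% of windows reach it in the receptors, 16.7% in MYD88 and 7.69% in UNC93B1.

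In every member the longest exon was a terminal one, and all regions lay in it. Of the 6 members with a strand in the RefSeq promoter table (TLR6, TLR9, CD180, MYD88, IRAK1 and IRAK4), this exon was the last exon of the mRNA in all 6, given that exon numbers run with the genome. The latter was read from the data: the longer terminal exon came last in 92.7% of 3371 measured genes of the plus strand and in 7.66% of 3122 of the minus strand. In TLR1 the log2 ratio was 2.81 in the long exon and -0.56 (-1.66 to 0.37) in the other exons. In TLR10 it was 3.74 and 1.16, in TLR7 3.03 and 1.16, in CD180 3.02 and 0.77 and in TLR9 2.50 and 0.34 (-0.67 to 1.34). The short exons of the receptors, 4 to 13 windows in all where they had coverage, thus had lower ratios than the long one. In TLR9 most of these 13 windows were near 0 in both libraries, with a mean input of 0.201 over them.

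In the other 4 members, too, the long exon had the higher ratio. The log2 ratio was 1.93 in the long exon of UNC93B1 and -0.57 in its 10 other exons, 1.83 and 0.41 in MYD88, and 0.39 and -0.82 in IRAK4. In IRAK1 it was -0.32 (-0.43 to -0.21) against -0.51 (-0.60 to -0.41), with intervals that overlapped only at their ends. The long terminal exon had the higher ratio in all 9 members with coverage in other exons, and it did so in 71% of 9354 measured genes. The difference was largest in TLR1, at 3.37 on the log2 scale, and smallest in IRAK1, at 0.19, with a median of 0.65 over those measured genes. The other exons of TLR1 were 5 windows with a mean input of 0.754, so its place above TLR10, at 2.58, is uncertain. TLR6 gives no such value because its other exon was at 0.

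Within the long terminal exon the receptors differed from the median course over measured genes. Each such exon was divided into 3 equal parts from the inner edge. Over 5456 measured genes with a longer terminal exon of at least 20 windows the median log2 ratio was 1.25 in the inner, 0.00 in the middle and -0.09 in the outer part, and a higher ratio in the outer than in the inner part was found in 23.5%. MYD88 followed this course with 2.87, 1.14 and 0.26, and IRAK4 with 0.63, 0.49 and -0.23. TLR9 had 2.41, 1.75 and 3.20 (3.0 to 3.40), CD180 2.90, 2.79 and 3.48 (3.23 to 3.75), and TLR1 1.77, 2.54 and 3.39 (3.25 to 3.53). These 3 receptors thus had their highest ratio in the outer part, where only 2.73% of genes stood above CD180, 2.88% above TLR1 and 3.56% above TLR9. Genes with the exon layout of the receptors were not compared separately here.

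The other receptors peaked in the middle of the exon. TLR10 had 3.84, 4.04 and 2.02, TLR7 2.95, 3.52 and 2.01, and TLR6 2.11, 3.78 and 1.24 (1.1 to 1.38). Even the outer part of TLR10 and TLR7 was above 4-fold, which 11% of genes reached there, and TLR6 was the only receptor below it. UNC93B1 had 1.47, 2.77 and 0.13, on an exon of only 16 windows. IRAK1 had 0.05, -0.55 and -0.54, below the median of all genes in each part. The position of the stop codon within these exons is not used here, so coding and untranslated parts were not separated.

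**Figure D4:**
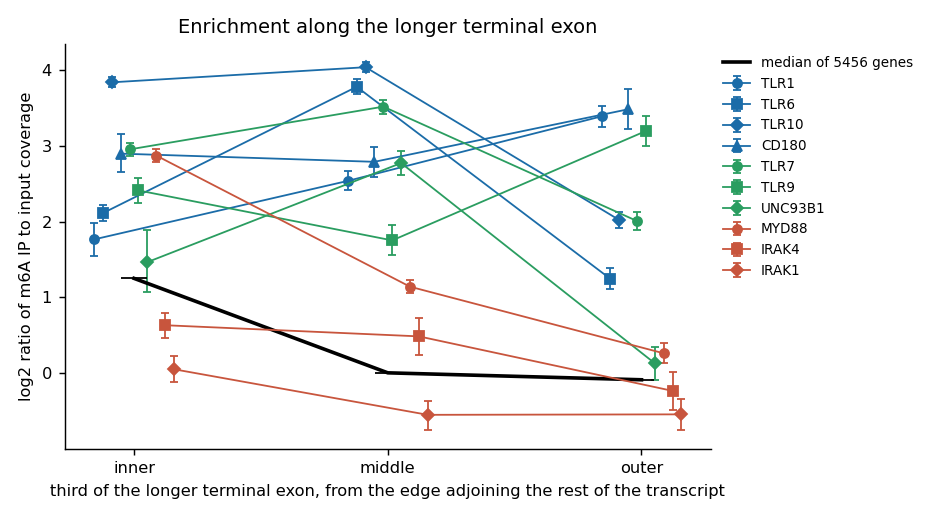
Log2 ratio of mean IP to mean input coverage in the inner, middle and outer of 3 equal parts of the longer terminal exon, with 95% counting intervals, for the 10 members (coloured by role) and as the median of 5456 measured genes (black line). The black line falls from 1.25 to -0.09, while TLR1, TLR9 and CD180 are highest in the outer part and the 6 receptors lie above the line in all parts.

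The other genes of the pathway were set beside the members from a list of 50 names. All 50 were in the table and 37 were measured. Of these, 16 had a region (43.2%), beside 44.2% of all measured genes and 57.9% of those of 50 to 120 windows. The 37 genes had a median of 67 windows, against 55 over all measured genes. A whole-transcript ratio of 4-fold or more was found in 9 of 37, with a median log2 ratio of 0.59, against 16.5% and 0.44 over all measured genes. The list as a whole thus stood near all measured genes in regions, and below the genes of 50 to 120 windows. Not all genes of the list lie in that range.

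By role, co-receptors and endolysosomal factors had a region in 3 of 10 measured genes, beside 44.2% of all measured genes. SLC15A4, an endolysosomal transporter needed for TLR7 and TLR9 signalling, had the highest gene-level score at 4.88 with an input of 7.83 and an IP of 31.0, and LY96, the co-receptor of TLR4, the lowest at 0.55. Of the other adaptors 2 of 4 had a region. TIRAP, which bridges receptors to MYD88, scored 5.0 with an input of 1.1 and an IP of 12, a whole-transcript log2 ratio of 3.45. TICAM1, the adaptor of TLR3, scored lowest at 1.14, yet had a whole-transcript log2 ratio of 2.19 and a longest exon with 94.5% of its windows. TICAM1 thus combined a broad ratio with no local region, as TLR1 and TLR9 did. The scores of TLR1 (1.96) and TLR9 (2.08) were close to the threshold, though, and both had a region with 0.1 added in place of 1.

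Kinases and ubiquitin enzymes had a region in 8 of 14 measured genes, beside 44.2% of all measured genes and 57.9% of those of 50 to 120 windows. The counts by role are small, and differences between roles were not tested. TAB1, a subunit of the TAK1 kinase complex, scored highest at 5.50 and TBK1, a kinase of the interferon response, lowest at 1.06. None of the 4 transcription factors IRF3, IRF5, IRF7 and IRF8 had a region, with gene-level scores from 0.64 in IRF7 to 1.74 in IRF5 at inputs of 12.7 to 17.5. Inhibitors of the pathway had a region in 3 of 5, from IRAK3, a kinase relative that restrains signalling, at 4.87 to TOLLIP at 1.53. IRAK3 had a whole-transcript log2 ratio of 2.02, against 0.19 in IRAK4 and -0.43 in IRAK1. Among the measured IRAK genes only IRAK3 had a region. Its input of 1.13 was near the minimum, and it had 174 windows against 94 in IRAK4 and 79 in IRAK1. With 0.1 added in place of 1, IRAK4 had a region too. IRAK2, at an input of 0.803, fell below the minimum.

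**Figure D5:**
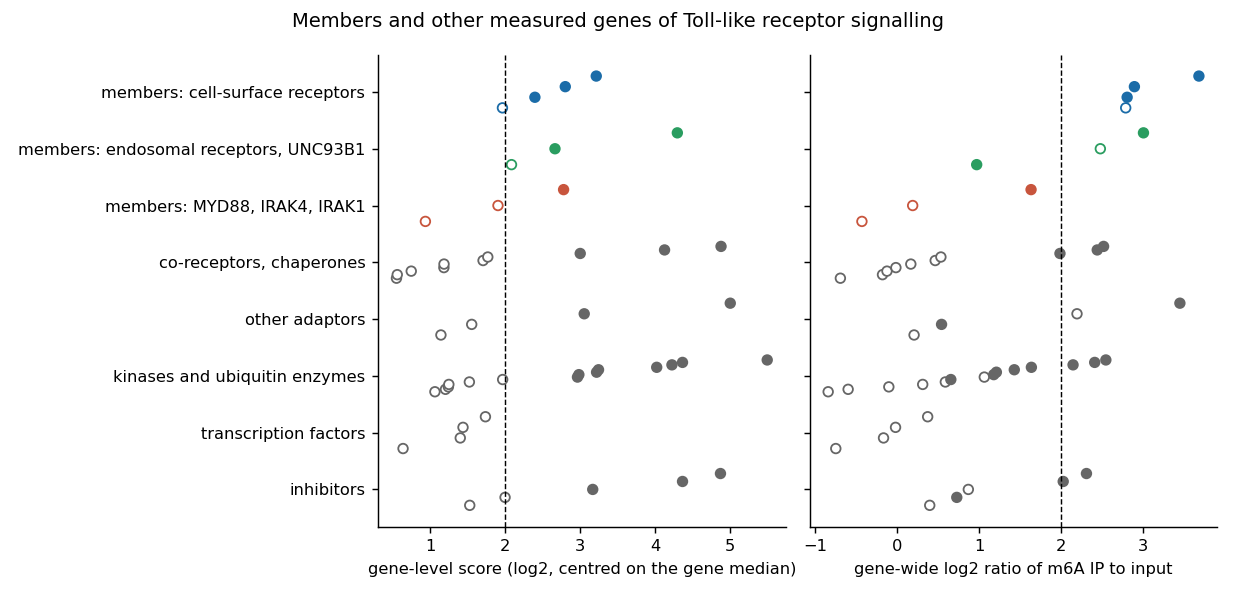
Gene-level score (left) and whole-transcript log2 ratio of IP to input (right) of the 10 members (coloured) and the 37 other measured pathway genes (grey), 1 point per gene by role, filled where the gene had a region. Dashed lines mark a value of 2, the 6 receptors lie right of it in the right panel, and the 4 transcription factors are open and left of it in both.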

How the data were processed

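The table deposited by the authors gives, per the file headers, a coverage signal for each library, its median over each gene and a log2 window score for 3335372 windows. TopHat 1.1.3 and the build hg19 stand in the submitters' processing notes, while no source used here gives the coverage program, the annotation or the scale factor between libraries. Medians and scores were recomputed from the coverage, and 0 windows differed from the deposited log2 score by more than 1e-09. From its steps, a signal of 1 stood for 5.84 input or 3.71 IP reads at each base, for windows of 100 nt every 50 nt. Ties between listings were settled by table order. Distances are to window centres, and transcript lengths were taken as 50 nt per window. Intervals are exact (Clopper-Pearson for IP against input, Poisson for input levels) at 95%, with gene medians held fixed, and PCR copies are not independent molecules. Those of gene-level scores take the best pair of windows as given. They leave out its choice as the highest of the gene, which can raise the score where reads are few. The members were described in full, and from each pathway role the highest and lowest measured gene-level score. TLR2, TLR3, TLR4, TLR5, TLR8, IRAK2 and the remaining interferon regulatory factors were added by name. Members, lists and rules were chosen with earlier results of these data known. Scripts (pandas 2.3.3 and numpy 2.4.6 for tables, scipy 1.17.1 for intervals, matplotlib 3.10.9 for plots, under Python 3.11.15) were tested on simulated data. The comparison with genes of the same exon layout, the parts of the terminal exon and the alternatives for whole-transcript ratios were added after the values were seen. Symbols, neighbours and strand came from RefSeq tables of GRCh38.p14, with a strand for 6 of the 10 members. The alternatives were the added number, centring, threshold, run length, input minimum and listing.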

Additional observations from a re-analysis of the deposited data

How the results depend on the processing

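The 6 members with a region became 2 (TLR6 and UNC93B1) at a score of 3, where 26% of measured genes had one. They became 3 with runs of at least 4 windows (TLR6, UNC93B1 and MYD88; 31% of genes) and 3 of the 4 members left at an input minimum of 5 (34.1%). The settings that stayed within 1.5 times the count gave 5 to 9 members. These were 5 with 5 added (33.9% of measured genes) and 8 without centring (45.5%). There were 9 with 0.1 added (51.8%), at a score of 1 (71.4%) and with runs of 1 window or more (48%). The other such settings gave 6, against 14.1% to 44.8% of the genes tested. Pathway genes with a region moved from 16 to 32 at a score of 1 (71.4% of measured genes) and to 7 of 19 at an input minimum of 5 (34.1%). The other settings gave from 12 at a score of 3 (26%) to 20 with 0.1 added (51.8%). The members' median gene-level score of 2.53 moved to 2.82 with 0.1 added, 2.19 with 5 added and 3.89 without centring. The median over all measured genes, 1.81 before, was 2.19, 1.33 and 1.79 in the same settings. The 4-fold count over whole transcripts, with alternatives chosen after seeing the data, lay between 4 and 6. UNC93B1, the highest with centring, stood at 3.81 without it, below TLR10 (5.65), TLR7 (4.81), TLR6 (4.55), CD180 (4.34) and TLR1 (3.97). No paired analysis was possible because each group has 1 library. The best window pairs rested on 13 input reads in TLR9, 21 in CD180 and 33 in IRAK4, whose score ranged from 2.55 with 0.1 added to 0.97 with 5 added.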
